A study of Mus musculus with 8 samples.

Results

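A set of 10 genes for transcription factors that mark mesenchymal progenitors were followed in fibroadipogenic progenitors of mouse hindlimb muscle. They were Hic1, Osr1, Osr2, Prrx1, Prrx2, Twist1, Twist2, Tcf21, Meox1 and Meox2. They were chosen by gene symbol, with earlier results of these data known. All 10 were rows of the deposited count table of 24419 genes, and all 10 passed the filter on low counts that left 13646 genes for testing. RNA sequencing was done on 8 libraries of male C57BL/6J mice in 3 groups. The sham group (n = 2) had sham surgery with no tumour cells. The scrambled group (n = 3) received KPCY cells, a mouse pancreatic cancer line, carrying a lentiviral vector with a scrambled sequence. The knockdown group (n = 3) received KPCY cells with a lentiviral vector that inhibits miR-27a-3p. In both tumour groups the cells had undergone 7 days of puromycin selection at 2 µg/mL before 50 µL of them was placed in the pancreas. The labels describe 1 stable line per vector, name the libraries biological replicates, and give no age, time of collection or sorting day. The microRNA was inhibited in the injected tumour cells and not in the sorted cells, so no gene of these libraries checks the knockdown. The design allows 3 comparisons: scrambled tumour against sham, knockdown tumour against scrambled tumour, and knockdown tumour against sham.

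Fibroadipogenic progenitors are the PDGFRα-positive stromal cells between muscle fibres, which support repair and can become fibroblasts or adipocytes. The transcription factors studied here set up or maintain such mesenchyme. Hic1 is a zinc-finger repressor tied to quiescence of adult stromal progenitors. Osr1 and Osr2 are zinc-finger factors of limb connective tissue. Prrx1 and Prrx2 are paired-related homeodomain factors of limb mesenchyme. Twist1, Twist2 and Tcf21 are basic helix-loop-helix factors that pair with E proteins on E-box sequences, and Meox1 and Meox2 are homeodomain factors of the early somite.

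RefSeq promoter windows are shown for Prrx1, Prrx2, Meox2, Twist1 and Twist2. Each runs from 250 bases before to 50 bases after the transcription start (GRCm38.p6). A window was found for 7 of the 10 members, and those of Hic1 and Tcf21 are not shown. Osr1, Osr2 and Meox1 had none. The windows are chr1:163313601-163313900 on the minus strand for Prrx1, chr2:30845117-30845416 on the plus strand for Prrx2, chr12:37108290-37108589 on the plus strand for Meox2, chr12:33957421-33957720 on the plus strand for Twist1 and chr1:91801211-91801510 on the plus strand for Twist2. The RefSeq start of Prrx2 lies 10395 bases inside the GENCODE gene, so its window is that of an internal start. Sequences run 5′ to 3′, and capitals mark matches on either strand to the motifs searched.
Prrx1 promoter: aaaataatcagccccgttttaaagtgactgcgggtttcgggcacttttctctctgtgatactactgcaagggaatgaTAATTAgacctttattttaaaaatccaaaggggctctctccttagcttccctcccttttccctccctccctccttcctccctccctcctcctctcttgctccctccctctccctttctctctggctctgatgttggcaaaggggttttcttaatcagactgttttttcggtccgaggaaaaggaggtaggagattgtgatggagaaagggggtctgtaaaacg
Prrx2 promoter: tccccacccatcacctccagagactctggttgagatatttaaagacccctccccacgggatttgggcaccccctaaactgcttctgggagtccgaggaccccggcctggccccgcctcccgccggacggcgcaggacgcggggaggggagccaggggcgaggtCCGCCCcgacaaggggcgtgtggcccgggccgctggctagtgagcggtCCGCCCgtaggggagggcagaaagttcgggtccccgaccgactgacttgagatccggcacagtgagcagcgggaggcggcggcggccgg
Meox2 promoter: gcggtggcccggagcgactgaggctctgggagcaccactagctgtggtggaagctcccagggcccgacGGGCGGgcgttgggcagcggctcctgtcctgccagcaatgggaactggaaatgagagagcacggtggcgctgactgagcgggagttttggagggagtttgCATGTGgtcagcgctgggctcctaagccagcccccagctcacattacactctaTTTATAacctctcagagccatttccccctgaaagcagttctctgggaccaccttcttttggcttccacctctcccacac
Twist1 promoter: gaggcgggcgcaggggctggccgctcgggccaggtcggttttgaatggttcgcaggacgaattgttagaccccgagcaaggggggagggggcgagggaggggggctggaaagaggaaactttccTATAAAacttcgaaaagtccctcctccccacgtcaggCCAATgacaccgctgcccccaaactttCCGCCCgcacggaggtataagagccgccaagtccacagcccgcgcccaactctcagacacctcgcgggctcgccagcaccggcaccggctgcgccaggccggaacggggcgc
Twist2 promoter: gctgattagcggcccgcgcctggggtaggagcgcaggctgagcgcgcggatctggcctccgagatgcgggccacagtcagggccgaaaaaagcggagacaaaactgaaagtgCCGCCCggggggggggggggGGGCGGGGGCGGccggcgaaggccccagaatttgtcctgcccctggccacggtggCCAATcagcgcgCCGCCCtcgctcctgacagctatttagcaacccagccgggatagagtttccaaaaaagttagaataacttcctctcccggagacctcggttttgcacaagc

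The motifs searched on both strands were the E-box CANNTG, the homeodomain core TAATTA, the GC box GGGCGG, the CCAAT box of these 5 letters, the TATA box as TATAAA, the STAT-type site TTCNNNGAA and the palindromic glucocorticoid response element. In these 5 windows no match overlapped another. The Prrx1 window held 1 homeodomain core and no GC box, whereas the Prrx2 window held 2 GC boxes and no homeodomain core. Meox2 had 1 E-box, 1 GC box and 1 TATA box on the opposite strand, 29 bases before the start. Twist1 held 1 GC box, 1 CCAAT box and 1 TATA box, and Twist2 held 4 GC boxes and 1 CCAAT box. Among all 32851 windows of this length, 72.3% held an E-box, 5.29% the homeodomain core, 35.7% a GC box, 37.4% a CCAAT box, 13.6% a TATA box, 8.30% the STAT-type site and 0.475% the glucocorticoid response element. CpG pairs numbered 28 in the Prrx2 window, 27 in Twist1, 25 in Twist2, 12 in Meox2 and 6 in Prrx1, against a median of 7 over all windows. No motif was shared by all 5 windows, and a match describes letters, not a bound site.

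Library totals ran from 15647436 to 28340450 counts, and levels are given as normalised CPM, in which each library is scaled to 1 common total after TMM. The scrambled libraries did not form 1 group: on the first principal component, which held 61.1% of the variance, scrambled libraries 1 and 3 stood at 115.5 and 92.0, scrambled library 2 at -12.31 and the other libraries between -47.68 and -32.32. The 5 sham and knockdown libraries define a range for each gene, and only 21.0% and 24.6% of all tested genes lay within it in scrambled libraries 1 and 3, against 56.8% in scrambled library 2. For that reason each comparison with the scrambled group is given with all libraries and without scrambled library 2, a left-out library singled out after its values were seen. The progenitor marker Pdgfra stood at 1256 and 1588 CPM in sham libraries. It stood at 1576, 1586 and 1519 CPM in scrambled and 1477, 1449 and 1467 CPM in knockdown libraries. Ly6a, the gene of the sorting marker SCA-1, stood at 951 and 933 CPM in sham and 451, 1136 and 436 CPM in scrambled libraries. In knockdown libraries Ly6a stood at 1110, 1175 and 1033 CPM. Its log2 change for scrambled against sham was -0.48 ± 0.38 with all libraries (edgeR adjusted p = 0.397). Without scrambled library 2 it was -1.08 ± 0.15 (edgeR adjusted p = 0.000119). The summed level of the 8 progenitor markers ran from 24468 to 31046 CPM over all libraries, but this sum was carried by Dcn, at 11101 and 14630 CPM in sham and 24983 and 21059 CPM in scrambled libraries 1 and 3. Without Dcn the other 7 markers summed to 4199 and 3409 CPM in scrambled libraries 1 and 3 and to 11421 to 15294 CPM in the other 6 libraries. Cd34 stood at 2250 and 2156 CPM in sham against 213 and 241 CPM in scrambled libraries 1 and 3, and Col1a1 at 8575 and 5448 against 1174 and 557 CPM. Of the 8 markers, edgeR without scrambled library 2 called 1 higher and 5 lower for scrambled against sham, where 51.0% of all genes were called. The 3 genes of the markers sorted against, Pecam1, Ptprc and Itga7, summed to 24.3 to 33.0 CPM in sham, 46.4 to 79.5 CPM in scrambled and 41.5 to 57.4 CPM in knockdown libraries. Median differences of genes in 5 classes of transcript GC content lay between -0.10 and 0.10 (log2) in every library.

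No member passed the test in any of the 3 comparisons with all 8 libraries (edgeR quasi-likelihood test, Benjamini-Hochberg adjusted p under 0.05 over all genes). Against that stood 1.58% of all genes called for scrambled against sham, 0.0513% for knockdown against scrambled and 0.00733% for knockdown against sham. Before adjustment 4, 4 and 1 of the 10 members had an edgeR p under 0.05 in the same order, none of them Tcf21. Beside these stood 3990, 4427 and 323 of all 13646 genes. limma-voom also called 0 in each comparison. DESeq2 called 4 members for scrambled against sham, with Hic1 and Meox2 lower and Twist1 and Twist2 higher, where it called 15.2% of all genes. It gave no p for Prrx2 and Meox1 in any comparison and no adjusted p for Tcf21 in this one, so these were not tested by it. For knockdown against scrambled DESeq2 called 3, with Prrx1 and Meox2 higher and Twist2 lower, where it called 17.0% of all genes. For knockdown against sham it called none of the 7 members with an adjusted p. Every scrambled library was above every sham library for 3 members, Osr2, Twist1 and Twist2, beside 20.2% of all genes, and below for 4, Hic1, Prrx2, Meox1 and Meox2, beside 20.8%. Every knockdown library was above every scrambled library for Prrx1 and Prrx2, beside 17.5% of all genes, and below for Osr2, Twist1 and Twist2, beside 16.7%. Knockdown libraries were all above sham for Prrx1 and Twist1, beside 13.8%, and all below for Hic1, beside 13.5%.

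Without scrambled library 2 many more genes were called. Tcf21 is left out of the counts that follow, since it passed the filter through the libraries where it was high. Of the other 9 members, edgeR called 2 higher and 5 lower for scrambled against sham, where 51.0% of all genes were called. It called 5 higher and 2 lower of 9 for knockdown against scrambled, where 54.0% of all genes were called. For knockdown against sham it called none, where 0.236% of all genes were called. The median size of the log2 change over these 9 members was 0.71 for scrambled against sham with all libraries, beside 0.51 over all genes, and 0.86 beside 0.71 without scrambled library 2. For knockdown against sham it was 0.17, the same as over all genes. Leaving out any other single library left 0 members called in every comparison. The first 2 comparisons share the scrambled libraries, so their values for a member are not independent.

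**Figure D1:**
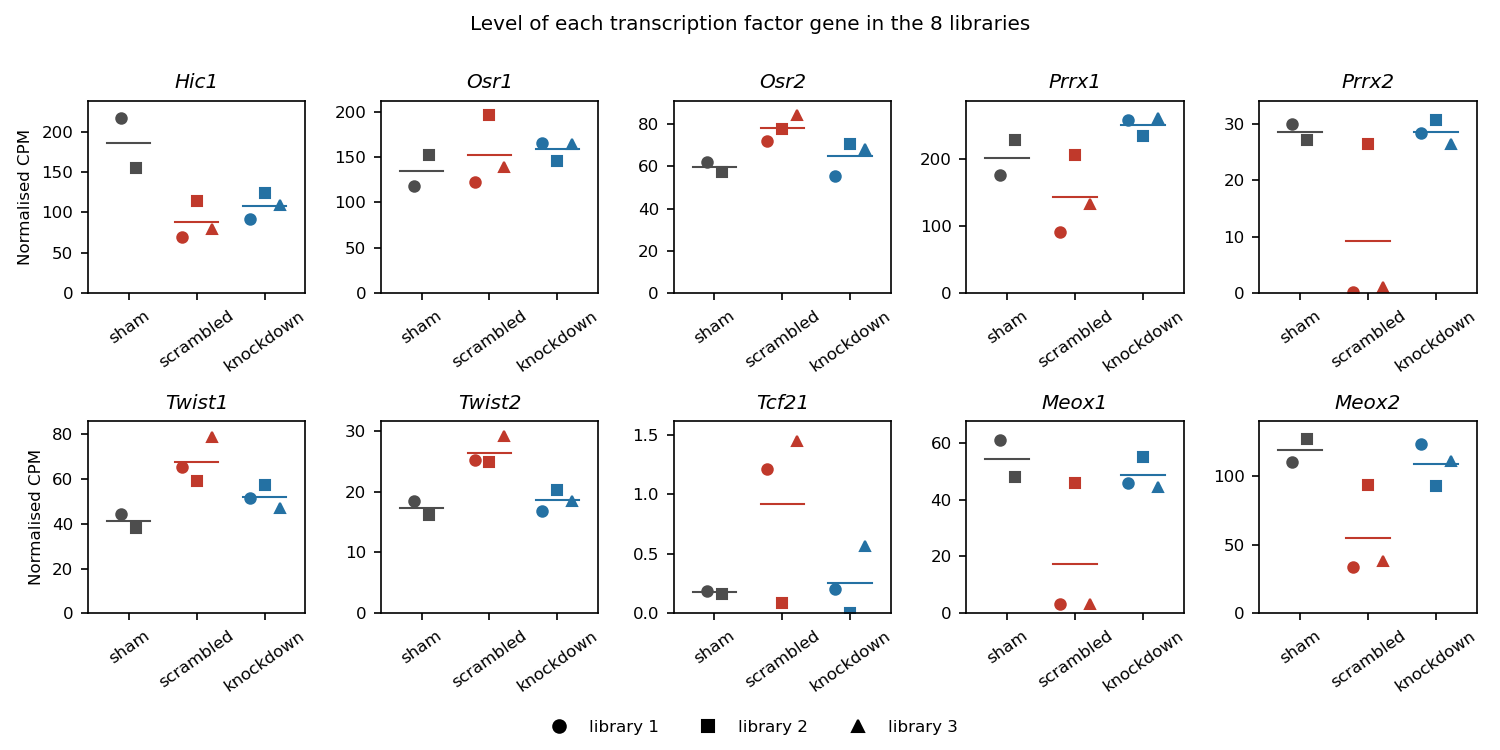
Normalised CPM of each of the 10 genes in the 8 libraries, with a symbol per library and a horizontal line at each group mean; each panel has its own axis from 0. Prrx2, Meox1, Meox2, Prrx1 and Hic1 are low in scrambled libraries 1 and 3 (circle and triangle), while Osr2, Twist1 and Twist2 are highest in the scrambled group.

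Prrx2, the smaller partner of Prrx1 in limb mesenchyme (chr2:30834972-30881251, plus strand; gene coordinates here and below are GENCODE M21 on GRCm38), was the member that differed most between libraries. It stood at 30.0 and 27.1 CPM in sham, at 0.274, 26.5 and 1.13 CPM in scrambled libraries 1, 2 and 3, and at 28.4, 30.6 and 26.5 CPM in the knockdown libraries. Scrambled libraries 1 and 3 were far below every other library, and scrambled library 2 sat at the lower edge of the sham and knockdown values. The read counts behind the low values were 7 and 18, against 475 to 626 reads in the other 6 libraries. The 95% Poisson intervals of those 2 values, which cover counting error only, were 0.11 to 0.565 CPM and 0.672 to 1.79 CPM. The group mean was 28.6 ± 2.11 CPM (SD, n = 2) in sham, 9.29 ± 14.9 CPM (n = 3) in scrambled and 28.5 ± 2.05 CPM (n = 3) in knockdown. With all libraries the log2 change was -1.59 ± 1.09 (SE) for scrambled against sham, with an edgeR adjusted p of 0.33. limma-voom, which averages log values, gave -3.75 on the same 8 libraries (adjusted p = 0.102). Without scrambled library 2 it was -5.53 ± 0.36, a 46.1-fold lower level, with an edgeR adjusted p of 6.06e-07. In that fit 99 of 13547 genes had a more negative change. In such bulk values, fewer cells of a type and less RNA per cell cannot be told apart.

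Meox1, a homeodomain factor of somites (chr11:101877510-101894374, minus strand), had the same profile over libraries. It stood at 60.8 and 48.0 CPM in sham, at 3.33, 45.9 and 3.15 CPM in scrambled, and at 45.9, 55.0 and 44.5 CPM in knockdown libraries. Scrambled library 2 lay within the range of the sham and knockdown libraries, and the other 2 scrambled libraries lay more than 10-fold below it. Scrambled against sham gave a log2 change of -1.62 ± 0.90 with all libraries (edgeR adjusted p = 0.245) and -4.05 ± 0.23 without scrambled library 2 (edgeR adjusted p = 3.47e-07), the latter 16.6-fold lower. limma-voom with all libraries gave -2.68 (adjusted p = 0.103). For knockdown against scrambled the values were 1.46 ± 0.83 (edgeR adjusted p = 0.239) and 3.88 ± 0.22 (edgeR adjusted p = 3.31e-07).

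Meox2, the paralogue of Meox1 (chr12:37108540-37179534, plus strand), stood at 110 and 127 CPM in sham, at 33.4, 93.3 and 38.3 CPM in scrambled and at 123, 92.6 and 111 CPM in knockdown libraries. All 3 scrambled libraries lay below both sham libraries, with scrambled library 2 close to knockdown library 2. The log2 change for scrambled against sham was -1.10 ± 0.39 (edgeR adjusted p = 0.119) with all libraries and -1.72 ± 0.17 (edgeR adjusted p = 1.11e-05) without scrambled library 2. DESeq2 with all libraries gave an adjusted p of 0.0487. Knockdown against scrambled gave 0.98 ± 0.35 (edgeR adjusted p = 0.109) and 1.60 ± 0.16 (edgeR adjusted p = 1.07e-05) without that library.

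Prrx1, which marks limb mesenchyme and fibroblast progenitors (chr1:163245119-163313710, minus strand), stood at 176 and 227 CPM in sham, at 90.6, 205 and 132 CPM in scrambled and at 257, 234 and 261 CPM in knockdown libraries. The knockdown libraries were the 3 highest, and scrambled libraries 1 and 3 the 2 lowest. For knockdown against scrambled the log2 change was 0.81 ± 0.27 with all libraries (edgeR adjusted p = 0.0965) and 1.17 ± 0.18 without scrambled library 2 (edgeR adjusted p = 0.000199). DESeq2 with all libraries gave an adjusted p of 0.0404. Scrambled against sham gave -0.50 ± 0.30 (edgeR adjusted p = 0.275) and -0.86 ± 0.19 (edgeR adjusted p = 0.00265) without that library. The change of Prrx1 was thus smaller than that of Prrx2 over the same libraries.

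Hic1, the repressor linked to progenitor quiescence (chr11:75164565-75169519, minus strand), was the only member with a lower mean in both tumour groups whose libraries did not overlap with sham in either. It stood at 217 and 155 CPM in sham, at 69.5, 114 and 79.0 CPM in scrambled and at 92.3, 124 and 109 CPM in knockdown libraries. The scrambled and knockdown libraries overlapped. The log2 change for scrambled against sham was -1.09 ± 0.25 (edgeR adjusted p = 0.0602), and -1.32 ± 0.19 without scrambled library 2 (edgeR adjusted p = 0.000159). DESeq2 with all libraries gave an adjusted p of 0.00324. Knockdown against sham gave -0.78 ± 0.25 with an unadjusted p of 0.0124, an edgeR adjusted p of 1.0, and 0.115 without scrambled library 2. Knockdown against scrambled gave 0.31 ± 0.23 (edgeR adjusted p = 0.348) and 0.54 ± 0.17 without scrambled library 2 (edgeR adjusted p = 0.0197).

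Twist1, the helix-loop-helix factor of mesenchyme and of epithelial-mesenchymal transition (chr12:33957671-33959829, plus strand), was higher in every scrambled library than in every other library. It stood at 44.2 and 38.2 CPM in sham, at 65.3, 58.8 and 78.7 CPM in scrambled and at 51.4, 57.4 and 47.1 CPM in knockdown libraries. Here scrambled library 2 sided with the other scrambled libraries, and the knockdown libraries lay between the groups. Against sham, the scrambled group differed by a log2 change of 0.71 ± 0.19 (edgeR adjusted p = 0.0788), and 0.81 ± 0.16 without scrambled library 2 (edgeR adjusted p = 0.00147). DESeq2 with all libraries gave an adjusted p of 0.0123. Knockdown against scrambled gave -0.38 ± 0.17 (edgeR adjusted p = 0.153) and -0.47 ± 0.14 without that library (edgeR adjusted p = 0.0147).

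Twist2, its close relative in dermal and muscle stroma (chr1:91801461-91848028, plus strand), had the same order at a lower level. It stood at 18.4 and 16.1 CPM in sham, at 25.2, 24.9 and 29.1 CPM in scrambled and at 16.8, 20.3 and 18.5 CPM in knockdown libraries. The 3 scrambled libraries were the highest, and the sham and knockdown libraries overlapped. The log2 change for scrambled against sham was 0.61 ± 0.20 (edgeR adjusted p = 0.104), and 0.66 ± 0.19 without scrambled library 2 (edgeR adjusted p = 0.0122), while DESeq2 with all libraries gave an adjusted p of 0.0325. Knockdown against scrambled gave -0.51 ± 0.17 (edgeR adjusted p = 0.0974), and -0.55 ± 0.17 without that library (edgeR adjusted p = 0.0148), while DESeq2 gave an adjusted p of 0.0416. The exons of Twist2 share 1477 bases with the antisense gene Gm29100, which is not a row of the count table. No source used here gives the counting strand, so reads of the 2 genes may not be told apart.

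Osr2 (chr15:35296098-35303305, plus strand) stood at 61.9 and 57.5 CPM in sham, at 71.9, 77.7 and 84.4 CPM in scrambled and at 55.7, 70.5 and 68.4 CPM in knockdown libraries. The scrambled libraries were again the 3 highest, by a small margin over knockdown library 2. The edgeR estimate against sham was 0.39 ± 0.17 (edgeR adjusted p = 0.174), and 0.39 ± 0.16 without scrambled library 2 (edgeR adjusted p = 0.0526). Osr1 (chr12:9570116-9581500, plus strand), a marker of embryonic fibroadipogenic progenitors, stood at 118 and 152 CPM in sham, at 123, 196 and 139 CPM in scrambled and at 166, 146 and 164 CPM in knockdown libraries. All 3 groups overlapped for Osr1. Its change for scrambled against sham was 0.18 ± 0.23 with all libraries (edgeR adjusted p = 0.601) and -0.04 ± 0.15 without scrambled library 2 (edgeR adjusted p = 0.838), so its sign depended on that library.

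Tcf21, a fibroblast and visceral mesenchyme factor (chr10:22817281-22820174, minus strand), was close to the detection floor. It had 3 and 3 reads in sham, 31, 2 and 23 in scrambled and 4, 0 and 13 in knockdown libraries. These were 0.190 and 0.167 CPM in sham, 1.21, 0.0845 and 1.45 CPM in scrambled, and 0.205, 0 and 0.569 CPM in knockdown, where a count of 0 allows up to 3 reads, here 0.167 CPM, a one-sided limit for counting error. It passed the filter through scrambled libraries 1 and 3, the only ones above all the rest. For that reason no call of Tcf21 is read as a result. The log2 change for scrambled against sham was 2.25 ± 1.26 by edgeR and 1.38 by limma-voom, and with 3 reads in each sham library its size is poorly determined.

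**Figure D2:**
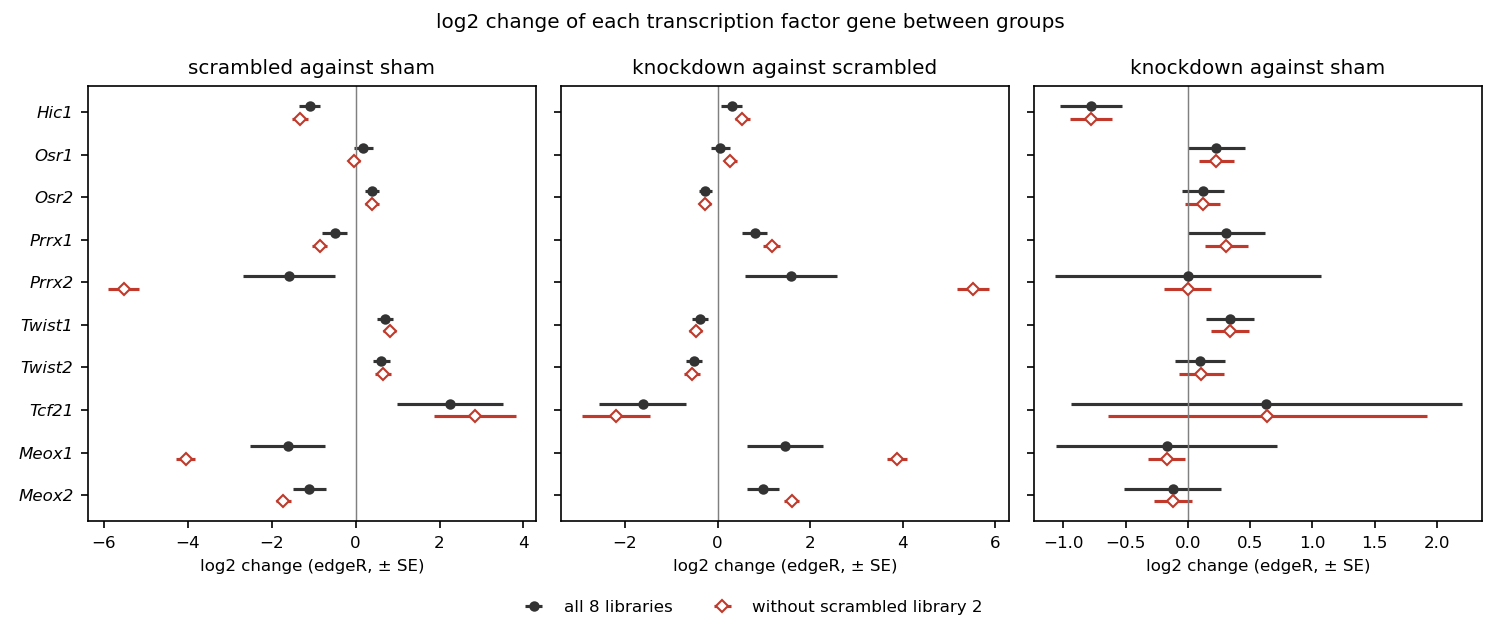
Log2 change of each of the 10 genes in the 3 comparisons, as the edgeR estimate with its standard error, from all 8 libraries (filled circles) and without scrambled library 2 (open diamonds). For scrambled against sham, Prrx2 moves from -1.59 to -5.53 and Meox1 from -1.62 to -4.05 when that library is left out, while Twist1, Twist2 and Osr2 hardly move.

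The knockdown libraries resembled the sham libraries for most members, though a p above the threshold does not show that levels were equal. Knockdown against sham gave log2 changes of -0.17 ± 0.89 for Meox1, -0.12 ± 0.39 for Meox2, 0.12 ± 0.17 for Osr2, 0.10 ± 0.20 for Twist2 and 0.23 ± 0.23 for Osr1. The edgeR adjusted p was 1.0 for each of the 10 members. Prrx2 had the same mean in both groups within 1 CPM, with a change whose standard error was 1.07. The members whose knockdown and sham libraries did not overlap were Hic1, lower, and Prrx1 and Twist1, higher, at 0.31 ± 0.31 and 0.34 ± 0.19. The wide errors of Prrx2 and Meox1 come with a dispersion shared over the 3 groups: without scrambled library 2 the standard errors were 0.19 and 0.15.

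Each of the 10 members was placed against the range of the 5 sham and knockdown libraries. Osr2, Twist1 and Twist2 were above it in all 3 scrambled libraries. Hic1, Prrx1, Meox1 and Meox2 were below it in scrambled libraries 1 and 3 and within it in library 2, and Prrx2 was far below it in libraries 1 and 3. Osr1 was above the range in scrambled library 2 alone, and Tcf21 was above it in libraries 1 and 3. Scrambled libraries 1 and 3 each had 4 members above, 5 below and 1 within. The 4 above were Osr2, Twist1, Twist2 and Tcf21, the last of which passed the filter through these libraries. Of all genes 38.3% and 36.8% were above and 40.6% and 38.6% below. Scrambled library 2 had 4 above, 1 below and 5 within, beside 21.9% of all genes above and 21.3% below. With 10 members, these counts are not read as a departure from the shares of all genes. The member below was Prrx2, at a level equal to the lowest of the other libraries when rounded.

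Levels of different genes were compared per kilobase of exon, since longer transcripts collect more reads. Exon length was that of the merged exons of all annotated transcripts, so the order depends on that choice. For Prrx1 it was 11066 bases over 5 transcripts, against 6527 bases for the transcript used for GC content. In sham the order was Osr1 at 65.3 CPM per kb, Meox2 at 50.2, Hic1 at 49.6, Twist1 at 25.3, Meox1 at 24.4, Prrx1 at 18.2, Osr2 at 16.5, Prrx2 at 14.6, Twist2 at 5.43 and Tcf21 at 0.076. Hic1 overlapped between libraries with Meox2 and with Osr1, whose values in sham library 1 were 57.9 and 57.2. Twist1 overlapped with Meox1, and Prrx1 with Osr2. In the scrambled group Osr1 stayed first at 73.8 CPM per kb, and Twist1 was second at 41.5 with no overlap between them or with Hic1, while Twist1 overlapped with Meox2. Meox1 averaged 7.83 and Prrx2 4.74 CPM per kb there, both overlapping with Twist2 and with each other. The knockdown order opened with Osr1 at 76.8, Meox2 at 46.1, Twist1 at 31.9 and Hic1 at 28.9 CPM per kb, of which Twist1 and Hic1 overlapped, and Hic1 also overlapped with Meox1. Osr1 had the highest mean CPM per kb in each group, without overlap in the scrambled and knockdown groups.

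**Figure D3:**
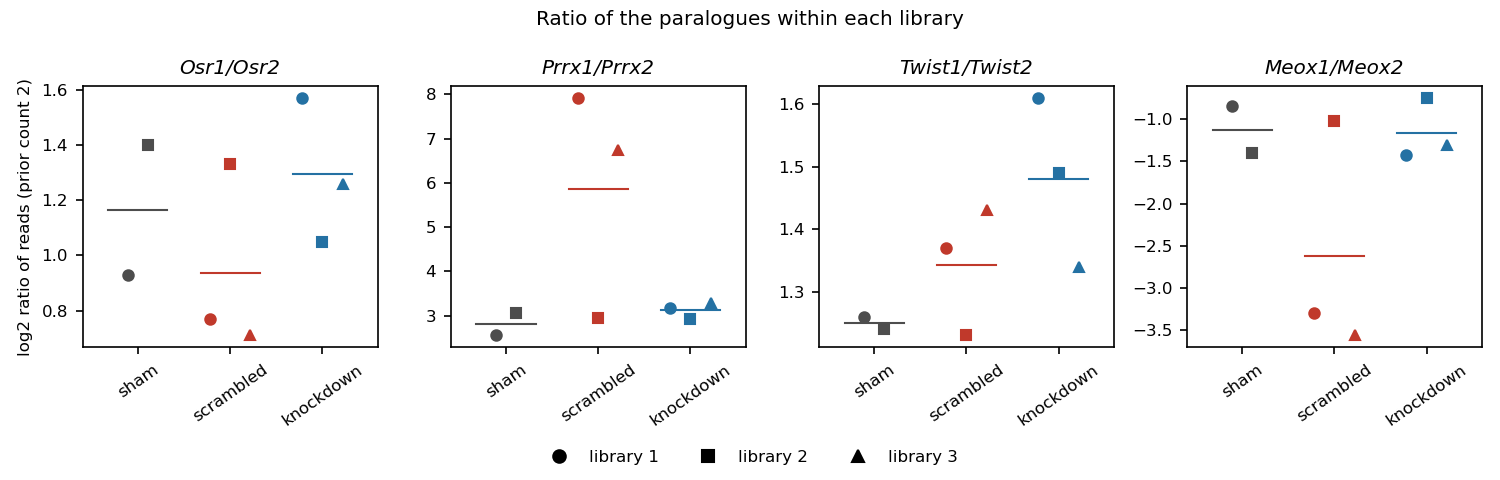
Log2 ratio of reads, each with a prior count of 2 scaled to library size, between the members of the 4 paralogue pairs in each of the 8 libraries, with horizontal lines at group means and a separate axis per panel. The log2 Prrx1/Prrx2 ratio is 7.92 and 6.74 in scrambled libraries 1 and 3 and between 2.55 and 3.29 in the other libraries, and the Meox1/Meox2 ratio is lowest in the same 2 libraries.

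The ratio of 2 paralogues within a library does not depend on how libraries are scaled. Without a prior count, there were 5.87 and 8.39 reads of Prrx1 per read of Prrx2 in sham, 330.0, 7.77 and 116 in scrambled and 9.02, 7.63 and 9.84 in knockdown libraries. Prrx2 was thus reduced relative to Prrx1 in scrambled libraries 1 and 3 and not in library 2. For Meox1 and Meox2 there were 0.555 and 0.377 reads of Meox1 per read of Meox2 in sham, 0.0998, 0.491 and 0.0821 in scrambled and 0.373, 0.594 and 0.402 in knockdown libraries. Twist1 had 2.36 to 3.06 reads per read of Twist2, and Osr1 had 1.64 to 2.98 per read of Osr2, with no library standing apart. Exact two-sided permutation tests of the mean log2 ratio, 12 in all, gave p from 0.2, with adjusted p from 0.45. With 2 against 3 or 3 against 3 libraries the smallest p such a test allows is 0.1, so none could pass 0.05.

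Over the 8 libraries, genes most like the members were named by Pearson r of log2 CPM among 9983 genes. Scrambled libraries 1 and 3 stand apart from the other 6, so r over 8 libraries largely reflects them, and r over the other 6 is given beside it without a p. Prrx2 was most like Pea15a, a death-effector-domain signalling adaptor, at 0.999 over 8 libraries and 0.76 over 6. Pea15a stood at 367 and 340 CPM in sham, at 42.1, 317 and 70.1 CPM in scrambled and at 334 to 359 CPM in knockdown libraries. Meox1 was most like Fndc4, at 1.0 and 0.946, Meox2 like Gnpda2, a glucosamine-phosphate deaminase, at 0.994 and 0.88, and Prrx1 like Arhgap18 at 0.994 and 0.966. Hic1 was most like Ets1, a transcription factor, at 0.974 and 0.962. Twist1 was most like Aspg at 0.973 and 0.965, Osr2 like Mdc1 at 0.961 and 0.949, and Osr1 like Phldb2 at 0.951 and 0.967. Among the members, Twist2 was the third gene most like Osr2, at 0.936 and 0.931. Twist1 and Twist2 had 0.92 and 0.78, and Prrx2 and Meox1 0.98 and 0.85. Prrx2 and Meox2 had 0.97 over 8 libraries and -0.22 over 6, so their likeness rested on scrambled libraries 1 and 3.

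Partners of the helix-loop-helix members were examined through the 3 E proteins and 4 Id proteins, the latter being inhibitors that hold E proteins away from DNA. All 7 were tested, and edgeR with all libraries called 0 for scrambled against sham, with 4 below 0.05 before adjustment, 3 higher by DESeq2 and 0 by limma-voom. Without scrambled library 2, 4 were called higher and 2 lower, where 51.0% of all genes were called. For this and the lists that follow, scrambled against sham had 3990 of all 13646 genes below 0.05 before adjustment. DESeq2 called 15.2% of all genes in that comparison. Id3 stood at 112 and 176 CPM in sham, at 850, 288 and 736 CPM in scrambled and at 236, 201 and 217 CPM in knockdown libraries. All 3 scrambled libraries were above every other library for Id3, at a log2 change of 2.11 ± 0.43 against sham (edgeR adjusted p = 0.052). Id4 changed by 1.59 ± 0.42 (edgeR adjusted p = 0.0787) and Id2 by 0.85 ± 0.33 (edgeR adjusted p = 0.143).

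Other mesenchymal transcription factors had mixed directions. Of 24 mesenchyme and epithelial-mesenchymal transition factors 23 were tested, and edgeR called 0 for scrambled against sham, with 8 below 0.05 before adjustment, 2 higher and 1 lower by DESeq2 and 0 by limma-voom. Without scrambled library 2, 6 were called higher and 7 lower of 22, where 51.0% of all genes were called. Sox4, a SoxC factor, stood at 18.7 and 20.0 CPM in sham, at 186, 36.8 and 547 CPM in scrambled and at 17.9, 26.0 and 17.5 CPM in knockdown libraries, a log2 change of 3.73 ± 0.94 (edgeR adjusted p = 0.0715). Foxc1 and Foxf1, forkhead factors of mesoderm, gave 1.17 ± 0.30 (edgeR adjusted p = 0.0729) and 1.81 ± 0.74 (edgeR adjusted p = 0.151). Of 30 limb and homeobox patterning factors 26 were tested, and edgeR called 0, with 9 below 0.05 before adjustment, 3 higher and 1 lower by DESeq2 and 0 by limma-voom. Without scrambled library 2, 10 were called higher and 5 lower, where 51.0% of all genes were called. Msx1, a homeobox factor of limb mesenchyme, stood at 76.5 and 81.6 CPM in sham, at 44.4, 53.7 and 35.8 CPM in scrambled and at 70.2, 74.0 and 68.8 CPM in knockdown libraries, with -0.82 ± 0.19 (edgeR adjusted p = 0.0602). All 3 scrambled libraries were below every other library for Msx1. Tbx5 gave -0.78 ± 0.25 (edgeR adjusted p = 0.106).

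The factors that commit progenitors to fat were the list with the most genes called with all libraries. Of 10 adipogenic factors tested for scrambled against sham, edgeR called 3 higher and 0 lower, where it called 1.58% of all genes. DESeq2 called 5 higher and 1 lower, and limma-voom 2 higher. Before adjustment 7 had an edgeR p under 0.05. Without scrambled library 2, edgeR called 6 higher and 2 lower, where 51.0% of all genes were called. The 3 called by edgeR with all libraries were the C/EBP factors. Cebpd rose by 2.06 ± 0.32 (edgeR adjusted p = 0.0252), from 465 and 471 CPM in sham to 1207 to 2339 CPM in scrambled libraries. Cebpb rose by 2.23 ± 0.42 (edgeR adjusted p = 0.0431) and Cebpa by 0.90 ± 0.18 (edgeR adjusted p = 0.0466). Among 8 tested tendon, cartilage and bone factors edgeR called 1, Runx1, which rose by 1.97 ± 0.28 (edgeR adjusted p = 0.0206), and DESeq2 called 2 higher. Only 3 of 7 myogenic factors were tested and edgeR called 0, with 1 below 0.05 before adjustment, 1 higher by DESeq2 and 0 by limma-voom. Msc, a helix-loop-helix repressor, gave 1.04 ± 0.29 (edgeR adjusted p = 0.0808), and Pax7, of muscle stem cells, was at 0 in 4 libraries and reached 1.01 CPM at most. The calls of the 4 genes held without scrambled library 2, with adjusted p of 0.000805 or less. The 3 C/EBP calls were lost when any other single library was left out, at edgeR adjusted p from 0.0555 to 0.358, and that of Runx1 without either sham or any knockdown library, at 0.0576 to 0.247. For knockdown against scrambled edgeR called 0 of the adipogenic factors, with 5 below 0.05 before adjustment, beside 4427 of all 13646 genes. DESeq2 called 1 higher and 4 lower, beside 17.0% of all genes, and limma-voom called 0. Cebpd gave -1.25 ± 0.27 in that comparison (edgeR adjusted p = 0.0685), with knockdown libraries at 704 to 917 CPM between sham and scrambled.

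Genes reported downstream of the members did not pass the test with all libraries. Of 7 reported for HIC1, edgeR called 0 for scrambled against sham, with 4 below 0.05 before adjustment, 1 higher and 1 lower by DESeq2 and 0 by limma-voom. Sirt1, a deacetylase gene reported to be repressed by HIC1, stood at 22.3 and 22.8 CPM in sham, at 63.8, 23.8 and 48.2 CPM in scrambled and at 22.3 to 26.7 CPM in knockdown libraries. Its log2 change was 1.01 ± 0.36 (edgeR adjusted p = 0.121). Sirt1 was above all sham and knockdown libraries in scrambled libraries 1 and 3, as were 38.3% and 36.8% of all genes. These libraries also had the lowest Hic1, and a link was not tested. Ackr3, a chemokine scavenger receptor gene also reported to be repressed, was lower, at 564, 757 and 421 CPM in scrambled against 1132 and 981 CPM in sham libraries. Its log2 change was -0.86 ± 0.25 (edgeR adjusted p = 0.0858), so these 2 genes differed in opposite directions. Ccnd1, the cyclin D1 gene, gave -1.61 ± 0.75 (edgeR adjusted p = 0.186). Of 5 genes reported for TWIST1, edgeR called 0, with 1 below 0.05 before adjustment, 1 higher by DESeq2 and 0 by limma-voom. Bmi1, a Polycomb gene, gave 0.49 ± 0.30 (edgeR adjusted p = 0.284) and Cdh2 0.87 ± 0.44 (edgeR adjusted p = 0.208). Cdh1, the epithelial cadherin gene, reached 9.40 CPM in scrambled library 1 and 3.13 CPM or less elsewhere. Cdh1 is also among the epithelial tumour markers, which summed to 15.9, 2.54 and 1.07 CPM in scrambled libraries. The source of its reads was not tested. Cdkn1a, the p21 gene reported downstream of MEOX1 and MEOX2, stood at 103 and 120 CPM in sham, at 810, 251 and 417 CPM in scrambled and at 218 to 268 CPM in knockdown libraries, at 2.15 ± 0.44 (edgeR adjusted p = 0.0502). DESeq2 called it higher and limma-voom did not, and Cdkn2a was not tested.

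Many surface and matrix genes of progenitors were low in the same libraries as Prrx2 and Meox1, while Pdgfra and Pdgfrb were not and Dcn was higher. Of 14 such genes tested for scrambled against sham, edgeR called 0, with 7 below 0.05 before adjustment, 1 higher and 3 lower by DESeq2 and 0 by limma-voom. Without scrambled library 2, 1 was called higher and 10 lower, where 51.0% of all genes were called. For knockdown against scrambled without it, 10 were called higher and 1 lower, where 54.0% of all genes were called. Thy1, a surface glycoprotein of stromal cells, stood at 660 and 351 CPM in sham, at 20.3, 138 and 6.86 CPM in scrambled and at 347, 460 and 303 CPM in knockdown libraries. Col15a1, a basement membrane collagen, stood at 1567 and 963 CPM in sham, at 31.5, 364 and 26.4 CPM in scrambled and at 927, 1403 and 957 CPM in knockdown libraries. For both genes scrambled library 2 lay between the other scrambled libraries and sham, unlike Prrx2 and Meox1, where it sat with sham. Dpp4, of the progenitors of the fascia, gave -0.93 ± 0.30 (edgeR adjusted p = 0.106). In knockdown against sham, edgeR called 0 genes of each of these lists, whether scrambled library 2 was kept or not, as did DESeq2 and limma-voom, with at most 2 genes of a list below 0.05 before adjustment.

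**Figure D4:**
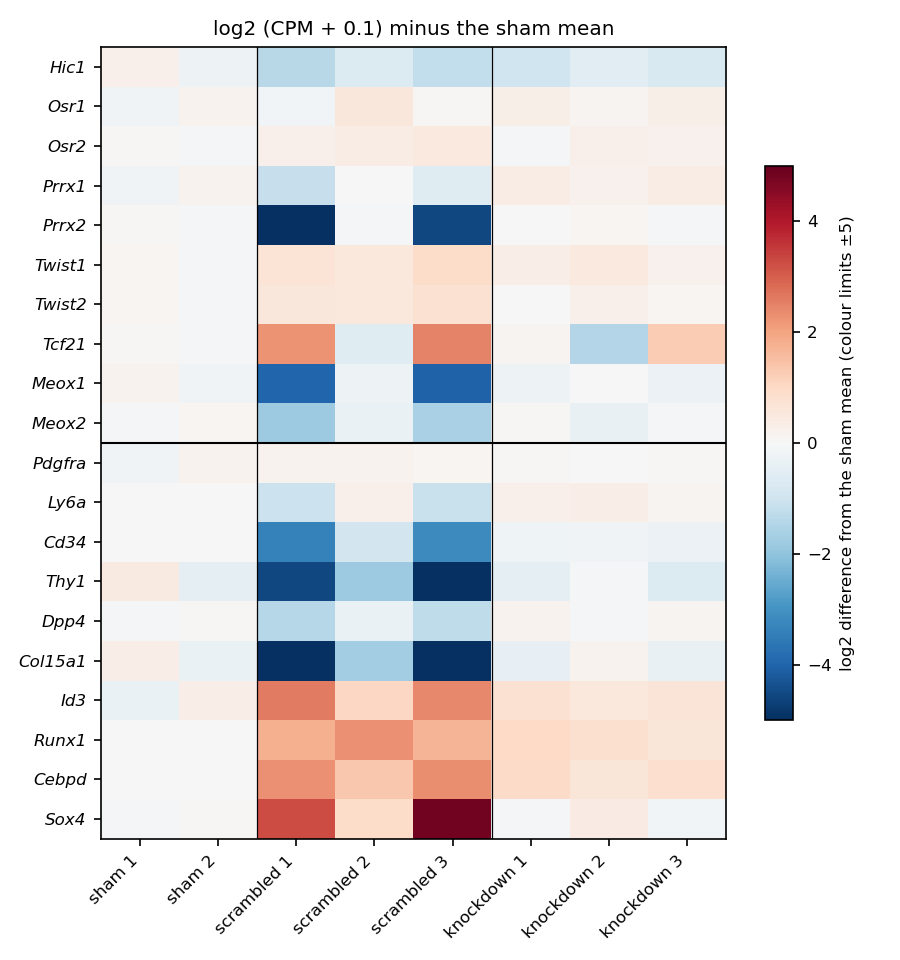
Difference of log2 (CPM + 0.1) from the sham mean in each of the 8 libraries (columns) for the 10 members (upper block) and 10 related genes (lower block), with colours limited at ±5. Blue cells of Prrx2, Meox1, Cd34, Thy1 and Col15a1 are deepest in scrambled libraries 1 and 3, and Pdgfra is pale throughout. Runx1 and Cebpd are red in all 3 scrambled libraries, at 1.37 to 2.32, and Twist1 and Twist2 only faintly red, at 0.52 to 0.94. Id3 and Sox4 are also above the sham mean in all 3.

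Markers of other cell types also varied with the groups, and their part in the results was not tested. Summed over 5 genes each, pericyte and smooth muscle markers came to 55.5 and 79.2 CPM in sham, 107, 162 and 199 CPM in scrambled and 113, 133 and 143 CPM in knockdown libraries. Muscle fibre markers came to 24.2 and 48.4 CPM in sham, 54.6, 73.7 and 192 CPM in scrambled and 37.5 to 46.8 CPM in knockdown libraries. Endothelial markers came to 162, 56.5 and 97.2 CPM in scrambled libraries, against 65.0 to 104 CPM in the other groups. Tenocyte markers ran from 657 to 801 CPM in scrambled and from 625 to 1257 CPM in the other libraries. Macrophage markers summed to at most 35.7 CPM, Schwann markers to 44.2, epithelial tumour markers to 15.9, neutrophil markers to 7.29, muscle stem cell markers to 3.15 and mature adipocyte markers to 2.64 CPM in any library.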

How the data were processed

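The authors deposited 1 table of raw read counts per gene symbol, with a column for each of the 8 libraries. Sorted cells were positive for SCA-1 and Hoechst and negative for CD31, CD45, α7-integrin and propidium iodide, and stranded mRNA libraries were read as pairs of 59 bases, per the labels' protocols. The submitters' processing notes name the build mm10 and the tools STAR, Bowtie, R 4.2.1, DESeq2 1.36.0 and bcl2fastq 2.20, with no roles. No source used here gives the counting tool, its annotation or its strand setting. Counts of reads have no molecular identifiers, so intervals cover counting error only.

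In R 4.3.3, genes were kept by filterByExpr (minimum count 10, minimum total 15), scaled by TMM and fitted with edgeR 4.0.16 (robust quasi-likelihood, 3 group means, all 8 libraries). Tests were two-sided, with Benjamini-Hochberg adjustment over 13646 genes and a threshold of 0.05; standard errors were taken as the size of the log2 change over the root of F. The alternatives were DESeq2 1.42.0, limma-voom (limma 3.58.1), RLE size factors, no filter, only the 2 groups compared, a replicate block and leaving out each library. Same-numbered libraries had deviations from group means correlated from -0.0643 to 0.172, and other pairs from -0.149 to 0.0683. Deviations within groups of 2 or 3 depend on each other, so this cannot exclude pairing by number. Ratios of paralogues used a prior count of 2 and exact permutation tests. Replicates of a group differed by more than sampling noise. On simulated data the fit recovered 18%, 92%, 96% and 98% of genes changed 2, 4, 8 and 16 fold for scrambled against sham (13398 genes) with 12 false calls, and 38%, 88%, 98% and 100% for knockdown against scrambled (13448 genes) with 13.

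The members and gene lists were chosen with earlier results of these data known. All members are named whatever their values; from each related list, the genes called in any comparison are named, or else up to 3 with the smallest p; and for each member the genes with the highest r (mean CPM of at least 5) were ranked, of which 1 or more are not reported here. Coordinates and exon lengths come from GENCODE M21 and promoters from RefSeq GRCm38.p6. P-values measure the spread between these libraries only.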

Additional observations from a re-analysis of the deposited data

How the results depend on the processing

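Of 419 log2 changes of members under alternative settings, those of Tcf21 included, 383 kept direction and side of the threshold. A further 23 passed the threshold that they had missed and 13 changed sign, and the cause was not tested. Genes called over all genes depended strongly on the setting. For scrambled against sham the count of 215 became 2078 with DESeq2, 4 with only the 2 groups compared, 16 with the replicate block and 0 to 6908 when 1 library was left out. For knockdown against scrambled the count of 7 became 2320 with DESeq2, 11 with no filter, 0 with only the 2 groups, 0 with the replicate block and 0 to 7313 when 1 library was left out. For knockdown against sham the count of 1 became 25 with DESeq2, 2 with no filter, 101 with only the 2 groups, 0 with the replicate block and 0 to 32 when 1 library was left out. The highest count of each range came without scrambled library 2. Members called, 0 with all libraries, became 4 and 3 with DESeq2 in the first 2 comparisons and ranged from 0 to 8 in each when 1 library was left out, 8 without scrambled library 2 (7 of them other than Tcf21) and 0 without any other. DESeq2 gave no p for Prrx2 and Meox1. limma-voom gave -3.75 for Prrx2 and -2.68 for Meox1 for scrambled against sham, and 3.75 and 2.52 for knockdown against scrambled, further from 0 than edgeR and without a call.

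The changes of sign were as follows. Osr1 ranged from -0.0418 to 0.3608 for scrambled against sham and from -0.0799 to 0.2751 for knockdown against scrambled when 1 library was left out. For knockdown against sham, the replicate block gave 0.3102 for Prrx2, -0.2678 for Tcf21, 0.1041 for Meox1 and 0.0191 for Meox2, and limma-voom gave -0.3036 for Tcf21. Leaving out 1 library gave -0.0766 to 0.0726 for Prrx2, -0.7062 to 1.1349 for Tcf21 and -0.3288 to 0.0089 for Meox1. The replicate block called no member in any comparison, and Runx1, Cebpa, Cebpb and Cebpd missed the threshold with it for scrambled against sham (edgeR adjusted p of 0.0625, 0.133, 0.0961 and 0.086). With only the 2 groups compared they missed it at 0.165 to 0.242, and Cebpa also with limma-voom (0.051) and with no filter (0.0507). Of 76 alternative values of paralogue ratios 70 kept their direction; leaving out 1 library gave -0.4582 to 0.0104 for Osr1/Osr2 in scrambled against sham, -0.1048 to 0.3638 for Osr1/Osr2 and -0.3125 to 0.2430 for Meox1/Meox2 in knockdown against sham. With 2 or 3 libraries a group at most 38% of 2-fold changes were recovered in simulated data. Low read counts limit the precision for Tcf21, with 0 to 31 reads per library, and for Prrx2 in scrambled libraries 1 and 3, with 7 and 18.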
